A study of Mus musculus with 19 samples.

Results

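The genes described here are 8 genes of fatty acid oxidation and ketone body metabolism: Cpt1a, Cpt2, Acadm, Hadha, Pdk4, Ppara, Bdh1 and Oxct1. They were chosen by name, for their place in these pathways, but with earlier results of these data known. All 8 are among the 14996 genes of the deposited table. RNA-seq was performed on cortex of APP23 mice, which carry 1 copy of a human APP transgene (APP751 with the familial Swedish mutation) on a C57BL/6 background. In this line the transgene is driven by the neuronal Thy1 promoter, and every group carried it, so no wild-type mice stand beside these groups. Mice of a mean age of 11.7 months were placed for 3 months on a high fat diet (HFD, 40% of calories as fat, from milk fat and corn oil) or a normal diet (ND). Behaviour was assessed at a mean age of 14.7 months. On ND there were 6 females and 4 males, and on HFD 5 females and 4 males, each mouse giving 1 library. The samples are labelled as brain, and the extraction notes give cortex.

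Long-chain fatty acids enter mitochondria as carnitine esters, and the matrix enzymes of β-oxidation then shorten them to acetyl-CoA. The liver turns surplus acetyl-CoA into ketone bodies, which the brain takes up and burns when glucose is scarce. In the brain, β-oxidation is ascribed mainly to astrocytes, whereas ketone bodies are used by neurons and glia alike. In liver and muscle many genes of both pathways are induced by the nuclear receptor PPARα when fatty acids rise, for instance during fasting or fat feeding. The comparison of HFD with ND therefore asks whether the cortical level of these transcripts differed after 3 months of fat feeding.

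Of the 8 genes, Bdh1 alone passed the test for a diet difference with both sexes together, and it fell by 8.04% on HFD. Bdh1 also passed in females alone, where it fell by 7.30%, and Acadm fell by 12.9% in males. No other gene of the 8 passed in any diet comparison with all mice. The threshold for every call is the cut-off of the study, an unadjusted p of 0.05, here from the quasi-likelihood test of edgeR on counts. The p values printed are adjusted ones (Benjamini-Hochberg over all genes tested) unless they are said to be unadjusted or from a permutation test. No diet difference of any gene passed an adjusted p of 0.05 with this test (0% of 14934 genes), while 5.99% were higher and 6.3% lower at the unadjusted threshold with both sexes together. The count of 1 lower gene among 8 is to be read against that 6.3%. The split of all genes moved with the scaling, from 894 higher and 941 lower to 686 and 1248 with library totals in place of TMM, and in males from 601 of each to 405 and 874.

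Library totals, worked back from counts and RPM, ran from 11727151 to 17178044 reads in females and from 9308206 to 10844280 in males. Sex and depth therefore cannot be told apart. Markers of cortical glutamatergic neurons were high in every library, with a summed level of 4566 to 6867 RPM (reads per gene, scaled so that libraries of unequal depth compare). Markers of the olfactory bulb varied far more, from 58.0 to 494 RPM in sum. On HFD 6 of the 8 olfactory bulb markers were lower and 9 of 10 microglial markers and 5 of 6 erythrocyte markers were higher at the unadjusted threshold, with both sexes together. Within a sex, erythrocyte markers were higher for 5 of 6 in females and 0 of 4 tested in males. Their sum in females overlapped between diets, at 192 to 263 RPM on ND and 195 to 402 RPM on HFD. Of 10 astrocyte markers 1 was higher and 1 lower. Among the others, 3 of 9 cortical interneuron and 3 of 7 choroid plexus markers were lower, 2 of 9 oligodendrocyte markers were higher, and of 10 endothelial markers 3 were higher and 1 lower. In bulk cortex, fewer cells of a type and less RNA per cell cannot be told apart. A fit that takes the mean of the olfactory bulb markers as a covariate was chosen once these marker levels were known. Its values stand beside the calls of the 8 genes. Some uncalled log2 fold changes moved by more than their SE. With both sexes Acadm went from -0.08 to -0.0026, Hadha from -0.013 to 0.030 and Pdk4 from -0.10 to -0.27. In females Cpt2 went from -0.05 to -0.22 and Ppara from -0.024 to -0.29. Female against male, Acadm went from -0.08 to 0.05, Hadha from 0.04 to 0.11 and Pdk4 from 0.20 to -0.10. In females this covariate nearly followed diet. HFD females lay at 0.96 to 1.42 log2 CPM and ND females at 2.26 to 3.60, except ND female 4 at 1.18. With it the SE of Bdh1 in females went from 0.05 to 0.08, so a call can be lost though the value does not shrink. The part of these markers in any difference was not tested.

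The 8 transcripts spanned a wide range of levels. Per kilobase of exon, from the merged exons of GENCODE M21 (GRCm38), Oxct1 was highest with a mean of 95.1 RPM per kb over the 19 mice. It encodes succinyl-CoA:3-ketoacid CoA transferase, the enzyme that commits ketone bodies to oxidation and that the liver lacks. Bdh1 followed at 11.8 RPM per kb, Acadm at 8.05, Hadha at 7.57, Pdk4 at 5.02, Cpt1a at 4.58, Cpt2 at 2.61 and Ppara at 2.24. Oxct1 exceeded Bdh1, Bdh1 exceeded Acadm and Cpt1a exceeded Cpt2 in 19 of 19 mice. The other neighbours in this order crossed, since Acadm exceeded Hadha in 15 mice, Hadha exceeded Pdk4 in 18, Pdk4 exceeded Cpt1a in 12 and Cpt2 exceeded Ppara in 14. The annotation used by the authors is not given in the sources used here, so these lengths may not be theirs. This order also depends on the lengths, which ran from 2391 bases for Cpt2 to 8730 for Hadha. Merged exons can be longer than the transcript that is present, which lowers the level per kb. In mean RPM without lengths, Hadha at 66.1 lay above Bdh1 at 45.7, while Oxct1 was still highest. The genes also differed in how far they varied among mice. The highest mouse exceeded the lowest by 1.09-fold for Oxct1, by 1.31-fold for Hadha and 1.36-fold for Bdh1, and by 2.65-fold for Pdk4.

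**Figure D1:**
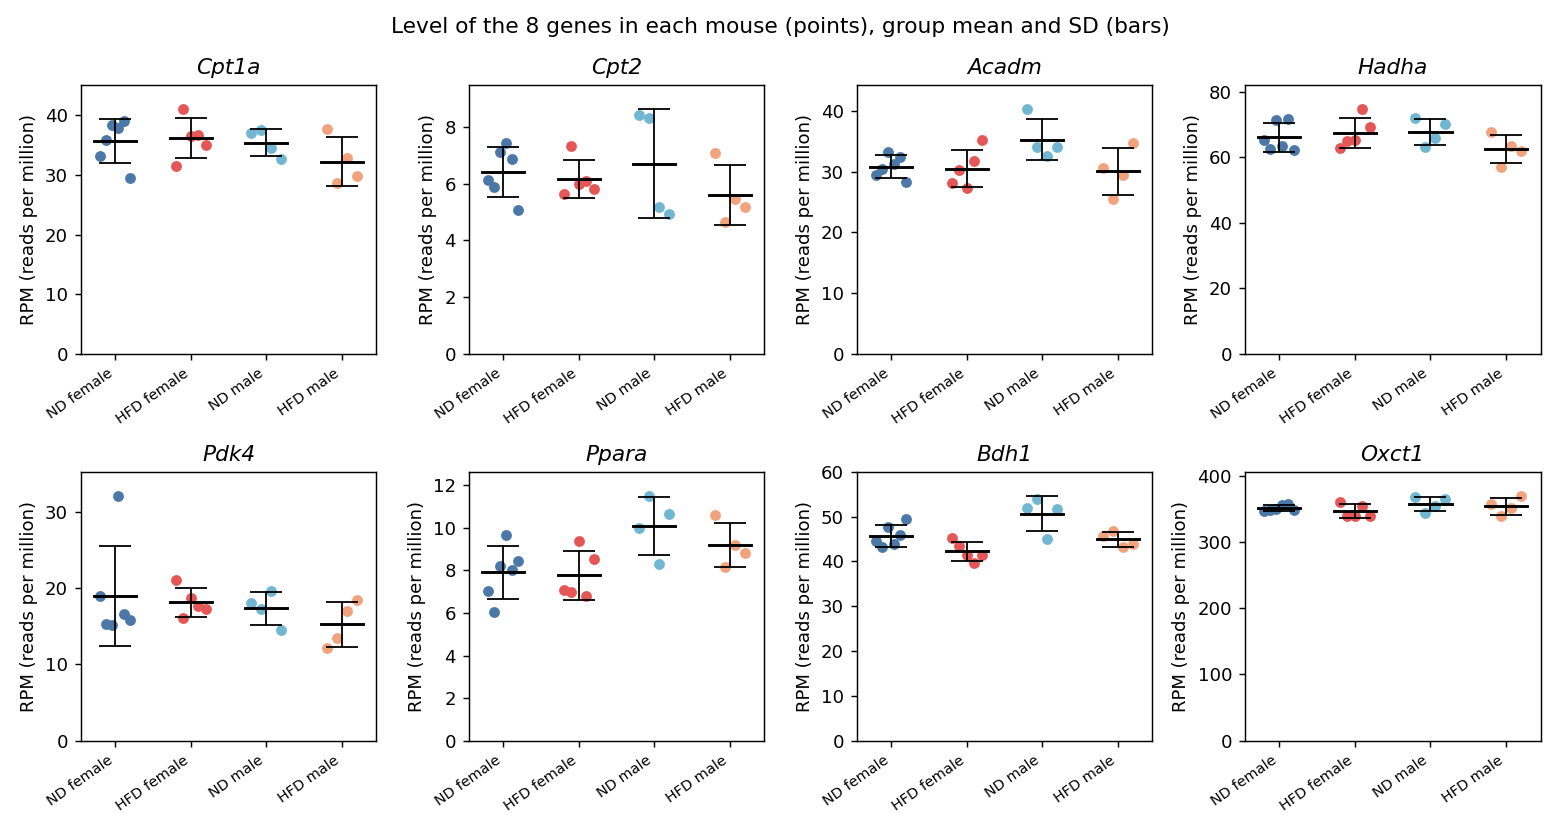
Level of each of the 8 genes in RPM (vertical axis, from 0) in every mouse, by group. Points are mice, horizontal bars are group means and whiskers are SD. The groups of the 2 diets overlap within each sex in all 8 panels, Bdh1 lies lower on HFD in both sexes, and 1 ND female stands at 32.1 RPM for Pdk4.

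Entry of fatty acids into mitochondria depends on Cpt1a and Cpt2. Cpt1a encodes the liver-type carnitine palmitoyltransferase of the outer membrane, the step that malonyl-CoA inhibits, and Cpt2 encodes its partner of the inner membrane. In ND females Cpt1a ran from 29.5 to 39.1 RPM with a median of 36.9. In the HFD females it was 31.6, 41.0, 36.6, 36.7 and 35.1 RPM, so that 4 of the 5 fell below the ND median and 1 lay above every ND female. ND males had 37.1, 37.5, 34.5 and 32.7 RPM and HFD males 37.8, 28.6, 32.8 and 29.8 RPM. The groups overlapped in both sexes. The log2 fold change of Cpt1a on HFD with both sexes together was -0.023 (SE 0.06, adjusted p = 0.921, 95% interval -9.92% to 7.54%), a difference that the test did not separate from 0.

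Cpt2 was a low transcript, with 46 to 118 reads per library. It ran from 5.07 to 7.46 RPM in ND females, with a median of 6.49, and HFD females had 5.65, 7.32, 5.98, 6.09 and 5.81 RPM. In ND males the gene split into a pair of mice at 8.42 and 8.31 RPM and a pair at 5.16 and 4.94 RPM, and HFD males had 7.10, 4.66, 5.47 and 5.19 RPM. Its coefficient of variation in ND males was 28.5%, against 6.45% for Cpt1a in the same mice. On HFD the log2 fold change was -0.12 (SE 0.11, adjusted p = 0.711) with both sexes together, and the interval ran from -21.4% to 8.05%. Neither the Cpt1a nor the Cpt2 difference passed the threshold.

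Cpt1a and Cpt2 varied together from mouse to mouse. After the mean of each group was removed, the Pearson correlation of their log2 CPM over the 19 mice was 0.79 and Spearman's rho was 0.85, each with an adjusted permutation p of 0.00028 over the 28 pairs among the 8 genes. The unadjusted p of 1e-05 is the smallest that 100000 draws within groups can give. The correlation was 0.90 in the 11 females and 0.79 in the 8 males. It remained 0.79 without the 2 mice farthest from the median of Cpt1a and was 0.82 with library totals in place of TMM scaling. Over all genes tested, some outside the 8 followed each transferase more closely, with r up to 0.84 for Cpt1a (Numa1) and 0.88 for Cpt2 (Fam110a). No other pair passed after adjustment, and the next by Pearson p was Pdk4 with Oxct1 (r = 0.55, permutation p = 0.0181, adjusted p = 0.253), whose r was 0.36 without the 2 farthest mice. Acadm and Hadha, both of mitochondrial β-oxidation, gave r = 0.48 (permutation p = 0.0744, adjusted p = 0.466) and 0.64 with library totals. Over all 28 pairs the median r was 0.073 and 16 pairs lay above 0, and with library totals these were 0.17 and 19. Acadm with Oxct1 moved with the scaling from -0.05 to 0.47, and Hadha with Oxct1 from -0.027 to 0.44. All genes of a mouse come from 1 library, so that the points of these correlations share its depth and composition.

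**Figure D2:**
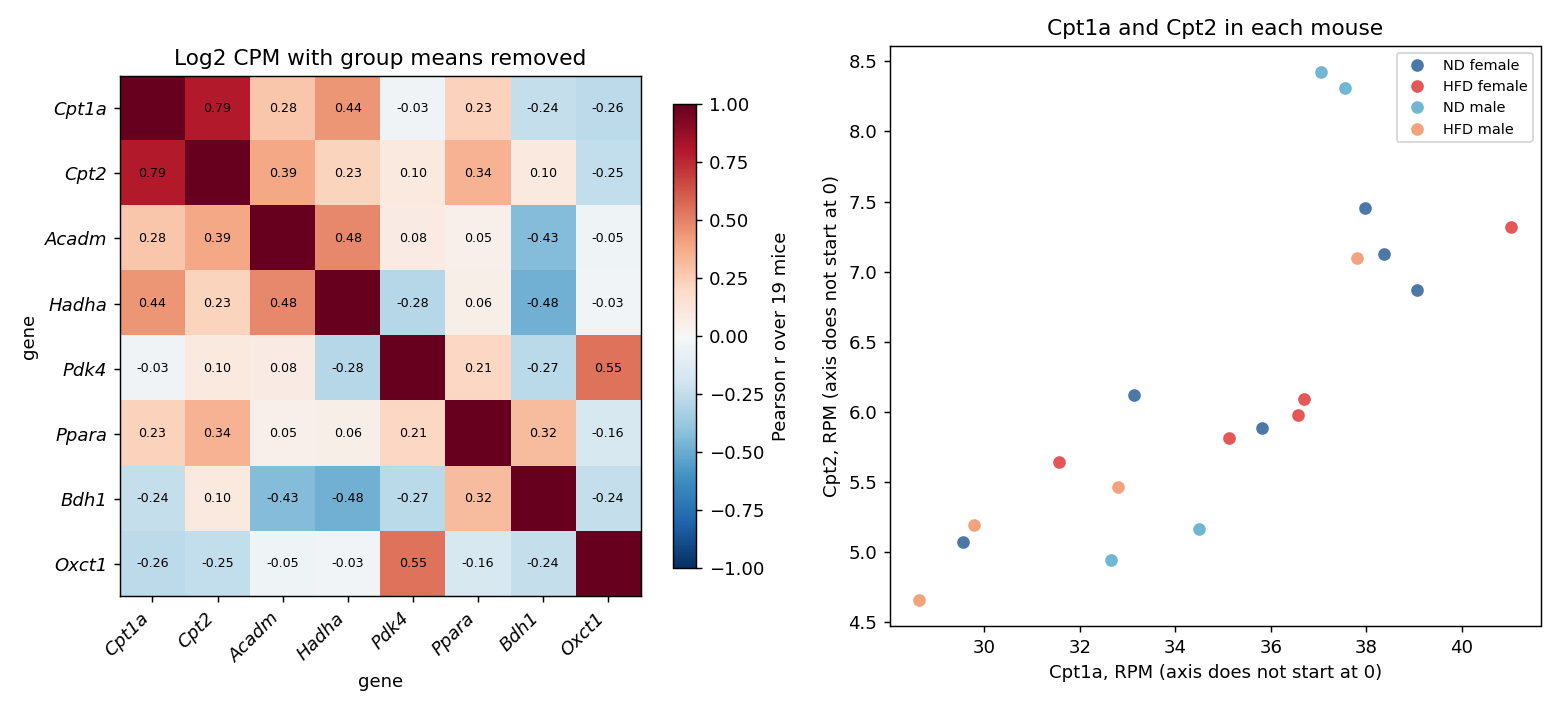
Left, Pearson r of log2 CPM with group means removed for each pair of the 8 genes over 19 mice (colour scale from -1 to 1). Right, Cpt2 against Cpt1a in RPM with 1 point per mouse coloured by group. The pair Cpt1a and Cpt2 has the highest r, 0.79, and both ND males above 8 RPM for Cpt2 are above 37 RPM for Cpt1a.

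Since Cpt1a and Cpt2 moved together, the windows from 250 bases before to 50 bases after their annotated starts are printed. They come from RefSeq on GRCm38.p6 and not from the mm9 build of the authors' counts, at chr19:3323051-3323350 (+ strand) for Cpt1a and chr4:107923540-107923839 (- strand) for Cpt2. Capitals mark AGGTCA, the half-site bound by PPARα and other nuclear receptors, read on the opposite strand as TGACCT.
Cpt1a: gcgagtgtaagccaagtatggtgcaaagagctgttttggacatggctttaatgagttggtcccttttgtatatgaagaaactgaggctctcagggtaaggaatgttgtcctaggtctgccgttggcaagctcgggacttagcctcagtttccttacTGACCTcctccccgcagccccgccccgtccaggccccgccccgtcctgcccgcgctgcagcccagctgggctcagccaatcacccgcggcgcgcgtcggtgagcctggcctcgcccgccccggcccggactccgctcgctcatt
Cpt2: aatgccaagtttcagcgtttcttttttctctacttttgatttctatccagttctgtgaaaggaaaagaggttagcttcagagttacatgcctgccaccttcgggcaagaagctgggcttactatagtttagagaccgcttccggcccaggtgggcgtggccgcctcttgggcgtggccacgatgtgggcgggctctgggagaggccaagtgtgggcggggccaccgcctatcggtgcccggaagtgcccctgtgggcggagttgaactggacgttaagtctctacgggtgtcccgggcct
The Cpt1a window holds the half-site once, at base -94 from the start, and the Cpt2 window does not hold it. All 8 genes matched, Bdh1 with 2 starts, giving 9 windows, and of these the windows of Cpt1a and Acadm (at base -249) held AGGTCA on either strand. The share of all 32851 windows that held it was 16.3%. The full repeat of the half-site with 1 base between, AGGTCA and AGGTCA, was in none of the 9 and in 0.0396% of all windows. The motif GTAAACA, known for FOXO factors, was also in none of the 9 and in 3.65% of all windows, and the glucocorticoid response element was in none of the 9. A match describes only these letters in these windows. The GC content was 62.3% for Cpt1a and 57.3% for Cpt2, against a median of 52.7% over all windows.

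β-Oxidation in mitochondria was represented by Acadm and Hadha. Acadm encodes medium-chain acyl-CoA dehydrogenase, the first step of each cycle for medium chains. ND males had 40.2, 34.1, 32.6 and 34.1 RPM of Acadm, and HFD males 30.5, 25.4, 29.4 and 34.7 RPM. In males 3 of the 4 HFD mice lay below every ND mouse, while the fourth lay above 3 of the 4. The log2 fold change in males was -0.20 (SE 0.09, unadjusted p = 0.0428, adjusted p = 0.578), at a background of 4.2% of 14293 genes higher and 4.2% lower. The exact permutation test of the RPM means in males gave p = 0.114 (two-sided, smallest possible 0.0286). Leaving out 1 mouse ended the call in 5 of 8 fits, with a log2 fold change from -0.26 to -0.14. With the olfactory bulb markers as a covariate it was -0.09 (adjusted p = 0.982), and the part of these markers in the difference was not tested further. The call was also lost with DESeq2 (adjusted p = 0.759) and with the likelihood ratio test of edgeR (adjusted p = 0.627).

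In females Acadm did not move in 1 direction. ND females ran from 28.3 to 33.2 RPM with a median of 30.8, and HFD females had 28.1, 30.2, 27.3, 31.8 and 35.1 RPM. HFD females thus lay on both sides of the ND range, and the log2 fold change was -0.0075 (SE 0.06, adjusted p = 0.989), at a background of 3.92% of 14756 genes higher and 4.5% lower. The difference of the diet effects between females and males was tested as the interaction and did not pass for Acadm (0.19, SE 0.11, adjusted p = 0.903), where 2.38% of all genes were higher and 2.83% lower. Without HFD male 4, the highest HFD male, it did (0.26, adjusted p = 0.82). None of the 8 genes passed the interaction test with all mice, nor did any gene pass it after adjustment (0%). With both sexes together Acadm had a log2 fold change of -0.08 (SE 0.06, adjusted p = 0.564), which passed only without HFD female 5 (-0.12, adjusted p = 0.337).

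Hadha encodes the α subunit of the mitochondrial trifunctional protein, which carries out the later steps on long chains. ND females ran from 62.1 to 71.8 RPM with a median of 64.4, and HFD females had 62.8, 65.0, 65.3, 74.7 and 69.4 RPM. ND males had 71.9, 63.2, 66.1 and 70.2 RPM and HFD males 67.9, 57.2, 63.4 and 61.9 RPM, all 4 below the ND median. The groups overlapped in both sexes. For Hadha the log2 fold change was 0.034 (SE 0.05, adjusted p = 0.901) in females, -0.08 (SE 0.06, adjusted p = 0.699) in males and -0.013 (SE 0.04, adjusted p = 0.934) with both sexes together. With both sexes the 95% interval ran from -6.35% to 4.93%. GENCODE M21 lets the opposite-strand gene Garem2 overlap a small part of the Hadha exons.

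Pdk4 and Ppara stand for the control of fuel choice. Pdk4 encodes a kinase that switches off pyruvate dehydrogenase and so spares glucose when fat is burned. In 5 of the 6 ND females Pdk4 lay between 15.2 and 18.9 RPM, and ND female 4 had 32.1 RPM. HFD females had 21.1, 16.0, 18.7, 17.6 and 17.3 RPM. ND males had 18.0, 17.2, 19.7 and 14.5 RPM and HFD males 12.1, 13.5, 17.0 and 18.4 RPM. The groups overlapped in both sexes, with 2 of the 4 HFD males below every ND male. The log2 fold change was -0.10 (SE 0.13, adjusted p = 0.822) with both sexes together.

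The female value of Pdk4 rested on that 1 mouse. The log2 fold change in females was -0.06 (SE 0.19, adjusted p = 0.962), and without ND female 4 it was 0.16 (adjusted p = 0.616). The same mouse had the lowest olfactory bulb marker mean of the ND females, 1.18 log2 CPM against 2.26 to 3.60 in the other 5, while HFD females lay at 0.96 to 1.42. Its choroid plexus markers summed to 404 RPM, the highest of the 19 mice, against 20.04 to 57.5 RPM in the other 5 ND females. The next highest sum, 275 RPM, was in HFD female 1, which had the highest Pdk4 of the HFD females. After it came ND male 2 with 183 RPM, whose Pdk4, 17.2 RPM, lay below that of ND males 1 and 3. ND female 4 also had the highest oligodendrocyte and striatum marker sums of the ND females, 5047 and 2427 RPM, and the part of these markers in its Pdk4 level was not tested. With the olfactory bulb markers as a covariate the female log2 fold change was -0.60, which passed the unadjusted threshold (adjusted p = 0.9997), so that both the sign and the call for Pdk4 in females depended on how this mouse and the olfactory bulb markers were treated.

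Ppara encodes PPARα itself and was among the lowest of the 8, with 71 to 138 reads per library. It ran from 6.05 to 9.68 RPM in ND females, with a median of 8.13, and HFD females had 7.09, 6.97, 9.39, 6.80 and 8.56 RPM. ND males had 10.01, 11.5, 8.28 and 10.6 RPM and HFD males 10.6, 8.16, 9.18 and 8.82 RPM. The diets overlapped in both sexes. The log2 fold change on HFD was -0.06 (SE 0.09, adjusted p = 0.857) with both sexes together, with an interval from -15.5% to 9.58%.

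Ketone body metabolism was represented by Bdh1 and Oxct1. Bdh1 encodes the mitochondrial 3-hydroxybutyrate dehydrogenase, which interconverts the ketone bodies 3-hydroxybutyrate and acetoacetate. In ND females Bdh1 was 44.5, 43.1, 47.6, 43.8, 45.9 and 49.6 RPM, and in HFD females 45.3, 43.4, 41.5, 39.6 and 41.4 RPM. In ND males it was 51.9, 53.95, 45.01 and 51.8 RPM, and in HFD males 45.7, 46.7, 43.1 and 44.0 RPM. Among HFD mice 3 of 5 females and 2 of 4 males lay below every ND mouse of their sex, and none lay above, although the groups overlapped. The means were 45.8 ± 2.45 (SD, n = 6) and 42.3 ± 2.18 RPM (n = 5) in females on ND and HFD, and 50.7 ± 3.90 and 44.9 ± 1.62 RPM (n = 4 each) in males.

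With both sexes together the log2 fold change of Bdh1 on HFD was -0.12 (SE 0.04, unadjusted p = 0.00523, adjusted p = 0.206). The level thus fell by 8.04%, with a 95% interval from -13.0% to -2.75%. It was -0.11 (SE 0.05, adjusted p = 0.587) in females, which passed, and -0.14 (SE 0.07, adjusted p = 0.605) in males, which did not. The interaction was 0.029 (SE 0.08, adjusted p = 0.973). The exact permutation test, with diet labels exchanged within each sex, gave p = 0.00359 for the mean RPM difference with both sexes, and the same test gave 0.0368 in females and 0.0857 in males. With both sexes the call stood in 12 of 12 other settings and in 19 of 19 fits with 1 mouse left out, where the log2 fold change ran from -0.14 to -0.11, but adjusted p stayed between 0.129 and 0.547 over all of these. In females alone it was lost in 7 of 11 fits with 1 mouse left out and in 5 of 12 other settings, among them DESeq2 (adjusted p = 0.636), the likelihood ratio test (adjusted p = 0.717) and upper quartile scaling (adjusted p = 0.617). With the olfactory bulb markers as a covariate the value with both sexes was -0.15 and passed (adjusted p = 0.547). In females it was -0.13 with a wider SE of 0.08 and did not pass, and in males it was -0.18 and passed. GENCODE M21 places the antisense transcript Gm15743 over part of the Bdh1 exons, and since no strand setting is stated, reads of the pair cannot be told apart.

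**Figure D3:**
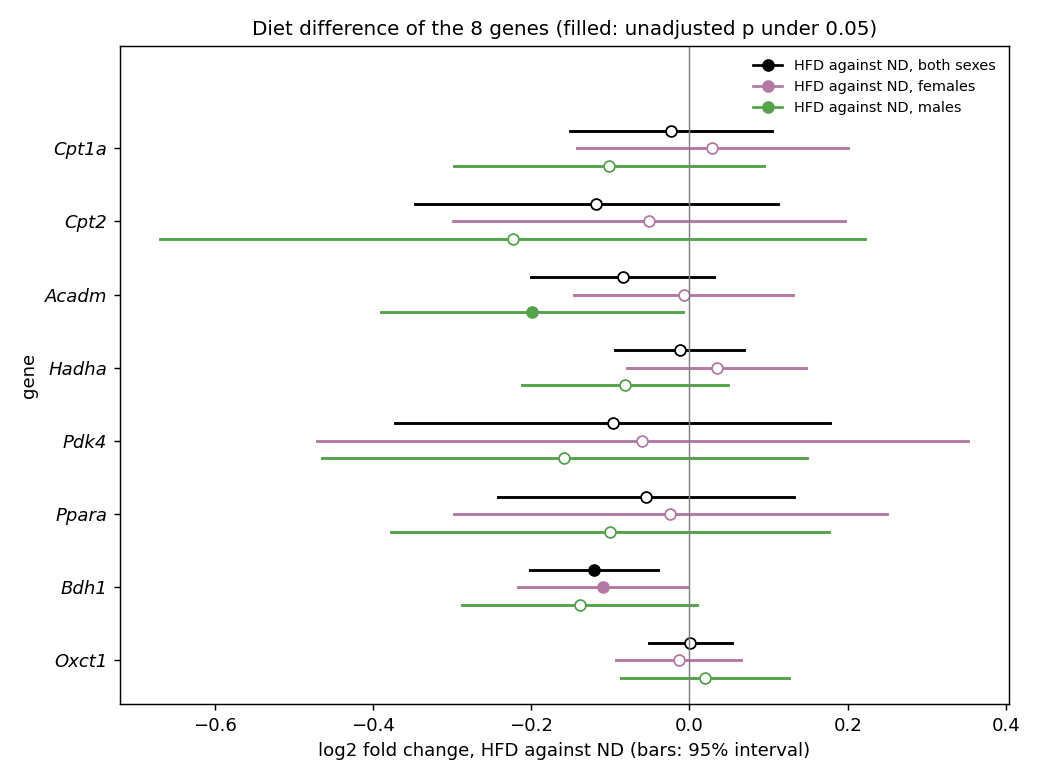
Log2 fold change on HFD against ND (horizontal axis) with its 95% interval for each of the 8 genes, in both sexes together (black), females (purple) and males (green). Filled points passed an unadjusted p of 0.05, which Bdh1 did in both sexes together and in females, and Acadm in males.

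Oxct1, the transferase that acts after Bdh1 in ketone body use, was the steadiest of the 8. ND females ran from 347 to 358 RPM with a median of 349, and HFD females had 361, 338, 339.7, 354 and 339.5 RPM. ND males had 367, 344, 354 and 365 RPM and HFD males 357, 339, 351 and 369 RPM. The groups overlapped in both sexes. Its log2 fold change was 0.0011 (SE 0.03, adjusted p = 0.992) with both sexes together, and the 95% interval ran from -3.48% to 3.77%, the narrowest of the 8. The antisense transcript BC037032 overlaps part of its exons in GENCODE M21.

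Between the sexes, Ppara and Bdh1 were lower in females. Ppara averaged 7.84 ± 1.15 RPM (SD, n = 11) in females and 9.65 ± 1.22 RPM (n = 8) in males, and the 2 ranges overlapped. Its log2 fold change, female against male, was -0.29 (SE 0.09, adjusted p = 0.0429). Bdh1 averaged 44.2 ± 2.88 RPM (SD, n = 11) in females and 47.8 ± 4.14 RPM (n = 8) in males, with a log2 fold change of -0.11 (SE 0.04, adjusted p = 0.0761). Of the 8 genes 2 were thus lower and none higher at the unadjusted threshold, where 14.4% of all genes were higher in females, 12.2% were lower and 11.2% passed an adjusted p of 0.05 in either direction. The sexes also differed in depth and in olfactory bulb markers, of which 8 of 8 were lower in females with a median log2 fold change of -2.29, so that these cannot be told apart from sex. Of other cell-type markers, 8 of 10 microglial, 6 of 9 oligodendrocyte and 4 of 9 striatum markers were higher in females and none of them lower, while 2 of 10 astrocyte markers were higher and 3 lower. The part of these markers in the values of Ppara and Bdh1 was not tested. With the olfactory bulb markers as a covariate Ppara was at -0.35 (adjusted p = 0.366) and Bdh1 at -0.16 (adjusted p = 0.340), both still past the unadjusted threshold. Ppara passed the adjusted threshold in some fits with 1 mouse left out and not in others, with adjusted p from 0.0216 to 0.0915, and so did Bdh1, with adjusted p from 0.0356 to 0.143.

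The wider pathways were described with 12 lists of genes, given by their counts at the unadjusted threshold with both sexes together and by their median log2 fold change, beside a median of 0.0021 over all 14934 genes. In the carnitine shuttle and fatty acid entry list, 0 of 15 genes passed, and the median was -0.023. The smallest p values were those of Fabp7, a fatty acid binding protein of glial progenitors (-0.52, adjusted p = 0.422), and Acbd3 (-0.07, adjusted p = 0.454). Next came Dbi, an acyl-CoA binding protein (-0.12, adjusted p = 0.505), and Fabp5 (0.08, adjusted p = 0.696). Cpt1c, the brain form of the transferase, was at -0.0052 and did not pass. In males alone Dbi fell (-0.29, adjusted p = 0.553).

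Among 16 acyl-CoA synthetases and thioesterases 1 rose and none fell, and the median was 0.0025. The gene that rose was Acsl1, a long-chain acyl-CoA synthetase (0.09, SE 0.03, adjusted p = 0.254), which had 63.1 ± 3.16 RPM (SD, n = 6) in ND females and 67.0 ± 2.39 RPM (n = 5) in HFD females. In males it had 63.9 ± 1.08 RPM on ND and 66.1 ± 3.57 RPM on HFD (n = 4 each). It was at 0.08 and did not pass with the olfactory bulb covariate. The other genes this list names did not pass, with Acsl5 at 0.09 (adjusted p = 0.687), Acsm5 at -0.33 (adjusted p = 0.702) and Acot13 at 0.06 (adjusted p = 0.712).

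Of 24 mitochondrial β-oxidation genes 1 fell and none rose, and the median was 0.0073. Echs1, the enoyl-CoA hydratase of short chains, fell (-0.10, SE 0.04, adjusted p = 0.304), and it also fell in males (-0.19, adjusted p = 0.553). Its value with both sexes was -0.10 with the olfactory bulb covariate and did not pass. Decr1, the 2,4-dienoyl-CoA reductase needed for polyunsaturated chains, was at 0.11 (adjusted p = 0.412) with both sexes and rose in females (0.21, adjusted p = 0.405). Etfb, a subunit of the flavoprotein that takes up the electrons, was at 0.07 (adjusted p = 0.561). The list therefore held genes on both sides of 0, with 13 above and 11 below.

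Peroxisomal β-oxidation, which shortens very long chains, had 2 genes higher and 1 lower of 16, with a median of -0.0025. Abcd2, a peroxisomal fatty acid importer, rose by 18.6% (log2 0.25, SE 0.09, adjusted p = 0.260). Pex5, the receptor for peroxisomal import, fell (-0.12, adjusted p = 0.326), a call that was lost in 4 of 19 fits with 1 mouse left out, for example without ND female 2 (-0.09). Acox3 was at 0.08 (adjusted p = 0.582). Neither Abcd2 (0.07) nor Pex5 (-0.07) passed with the olfactory bulb covariate.

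In the list of ketone body synthesis, use and transport, Bdh1 was the 1 gene of 13 that fell and none rose, and the median was 0.013. The monocarboxylate transporters Slc16a1 and Slc16a7, which carry ketone bodies across membranes, were at 0.022 and 0.16, and neither passed (adjusted p = 0.444 for Slc16a7). The cytosolic homologue Bdh2 was at -0.16 (adjusted p = 0.844). Of pyruvate dehydrogenase and its kinases, 0 of 14 genes passed, and the median was -0.011, with Pdhb at -0.05 (adjusted p = 0.65), Pdk2 at -0.05 (adjusted p = 0.68) and Dlat at -0.025 (adjusted p = 0.741).

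Of 19 genes of the PPAR family, its partners and coactivators 1 rose and 2 fell, with a median of 0.0074. Ppargc1a, the coactivator PGC-1α that drives mitochondrial biogenesis, fell by 9.85% (log2 -0.15, SE 0.06, adjusted p = 0.286) and did not pass with the olfactory bulb covariate (-0.04). ND males had 103, 83.4, 78.04 and 97.9 RPM of it and HFD males 82.3, 67.8, 69.3 and 88.7 RPM. Rxrb, a heterodimer partner, rose (0.07, adjusted p = 0.401) and the coactivator Ncoa2 fell (-0.07, adjusted p = 0.406), and these calls stood in 6 and 8 of 19 fits with 1 mouse left out. With the covariate Rxrb was at 0.07 and did not pass, whereas Ncoa2 passed at -0.10. Among 27 known PPAR target genes, 2 rose, Acsl1 among them, and none fell, and the median was -0.013, while Ucp2 (0.19, adjusted p = 0.501) did not pass.

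Of 12 genes around malonyl-CoA and AMP kinase, Prkab2, a β subunit of that kinase, rose (0.15, SE 0.05, adjusted p = 0.232) and none fell, with a median of 0.019. Fasn, the fatty acid synthase, was at -0.08 (adjusted p = 0.516), Prkab1 at 0.12 (adjusted p = 0.591) and Camkk2 at 0.08 (adjusted p = 0.77). Of 13 lipid droplet and lipolysis genes 1 rose and 1 fell, with a median of 0.0076. Lpl, the lipoprotein lipase, rose by 25.3% (log2 0.33, SE 0.13, adjusted p = 0.300) but did not pass without HFD female 5 (0.25), and Cidea, a lipid droplet protein, fell (-0.39, adjusted p = 0.298). Abhd5 was at 0.08 (adjusted p = 0.623) and Mgll at 0.07 (adjusted p = 0.681). With the covariate Prkab2 (0.05), Lpl (0.14) and Cidea (-0.24) did not pass.

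Among 18 glucocorticoid-responsive genes 1 rose and 1 fell, with a median of 0.048. The gene that rose, Lcn2, was carried by HFD female 1 at 7.82 RPM, when every other mouse lay at or below 1.47 RPM, and without that mouse it did not pass the low-count filter. With the covariate it was at 1.56 and did not pass. Cdkn1a fell (-0.28, SE 0.10, adjusted p = 0.247) and did not pass with the covariate (-0.10). Errfi1 was at 0.09 (adjusted p = 0.467) and Per1 at -0.19 (adjusted p = 0.477).

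The list of FOXO and insulin-responsive genes had 4 of 15 lower and none higher, beside the 6.3% of all genes, with a median of -0.033. The list was chosen with earlier results of these data known, so this count is a description and not a test of the pathway. Irs2, an adaptor of the insulin receptor, fell by 26.5% (log2 -0.44, SE 0.11, adjusted p = 0.130). ND females ran from 48.7 to 67.8 RPM of Irs2, and HFD females had 38.8, 48.8, 37.9, 38.6 and 32.1 RPM, with 4 of the 5 below every ND female. ND males had 41.7, 56.0, 49.2 and 35.2 RPM and HFD males 28.4, 43.2, 43.9 and 36.1 RPM, with overlap. The log2 fold change of Irs2 was -0.59 (SE 0.11, adjusted p = 0.243) in females and -0.23 (SE 0.19, adjusted p = 0.728) in males, where it did not pass, and the interaction did not pass (-0.36, SE 0.21, adjusted p = 0.903). Irs1 fell by 12.1% (-0.19, SE 0.05, adjusted p = 0.166), Foxo6 by 24.5% (-0.40, SE 0.10, adjusted p = 0.130) and Cited2 by 21.2% (-0.34, SE 0.09, adjusted p = 0.153). All 4 passed in 19 of 19 fits with 1 mouse left out. With the olfactory bulb covariate Irs2 (-0.61) and Foxo6 (-0.44) passed, and Irs1 (-0.11) and Cited2 (-0.16) did not.

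**Figure D4:**
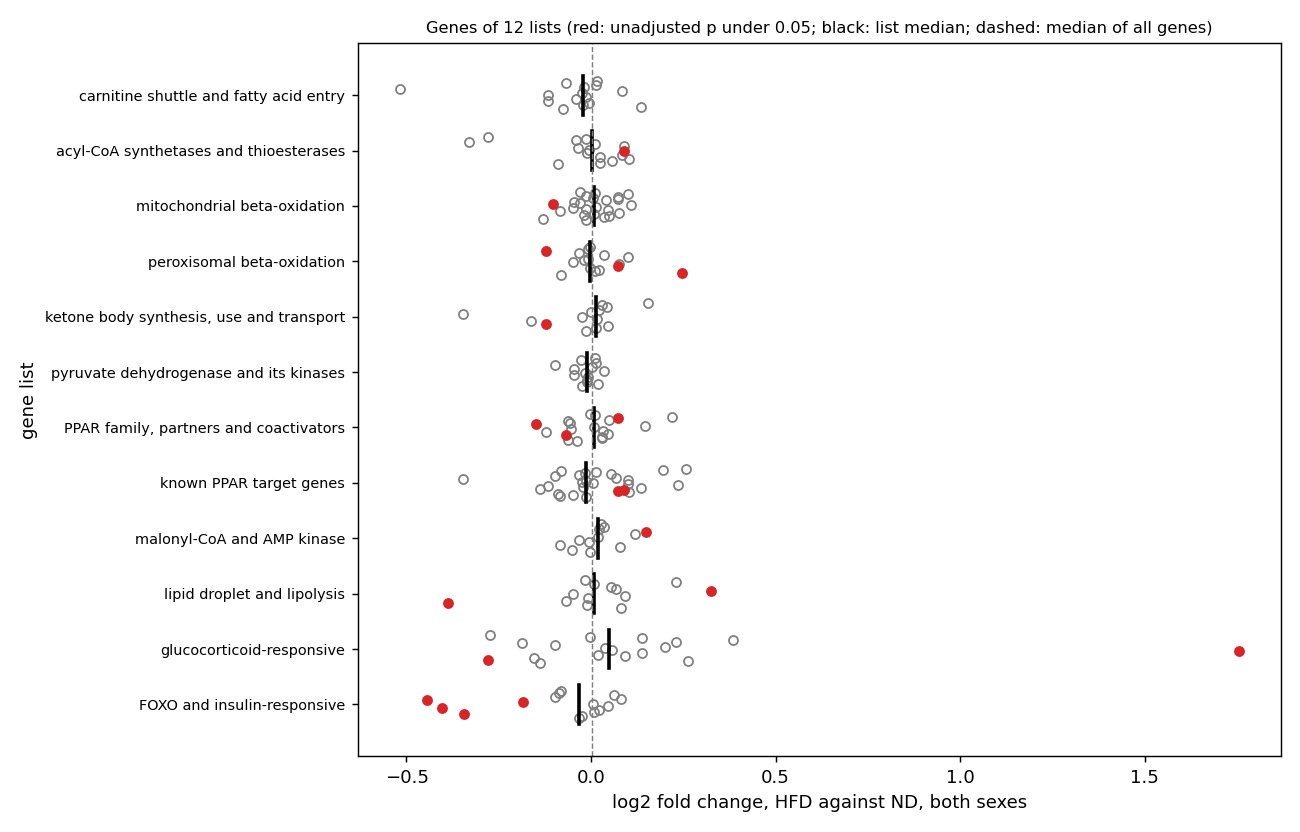
Log2 fold change on HFD against ND with both sexes together (horizontal axis) for every tested gene of the 12 lists, 1 row per list. Red points passed an unadjusted p of 0.05, the black bar is the list median and the dashed line the median of all genes. List medians lie between -0.033 and 0.048, and the FOXO and insulin-responsive list has 4 red points, all below 0. The lists were chosen with earlier results of these data known.

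The genes whose pattern over the 19 mice was most like that of a member were found by Pearson r of log2 CPM with group means removed, among the 14933 other genes. They are given as a description, since the highest of so many correlations is large in any data. For Cpt1a they were Numa1, Nr1d2 and Fgd5 (r from 0.83 to 0.84), of which Nr1d2 encodes a circadian nuclear receptor. For Cpt2 they were Fam110a, Fgd5 and Tpcn1 (0.84 to 0.88), so that Fgd5 stood among the 3 nearest genes of both transferases. For Acadm they were Fgfr2, Slc37a1 and Notch2 (0.82 to 0.85), and for Hadha Prkd3, Mrps5 and Ormdl1 (0.82 to 0.87), where Mrps5 encodes a protein of the mitochondrial ribosome. Pdk4 was nearest to Sfxn1, a mitochondrial serine carrier, Alg14 and Enpp2 (0.76 to 0.77). For Ppara they included Zfp1 and Btbd2 (0.82 to 0.86), for Bdh1 BC037034, Gm16894 and Phlpp2 (0.85 to 0.86), and for Oxct1 Efhc2, Zfp770 and Nrm (0.74 to 0.85).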

How the data were processed

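RNA was measured in 19 mouse cortices. Per the labels and the paper's methods, the authors aligned reads to mm9 with Subread 1.4.0 (a version taken from the submitters' processing notes), counted them with featureCounts and deposited raw counts per gene. The authors also deposited RPM, the count scaled to a common total for every library. Library totals were worked back from the deposited counts and RPM. With 1 such total per library the RPM of every gene was returned to within 4.85e-06 RPM. The annotation and the strand setting are not given in the sources used here. No columns were left out.

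Counts were tested with the quasi-likelihood test of edgeR 4.0.16 (R 4.3.3, limma 3.58.1, statmod 1.5.0) after filterByExpr (minimum count 10, total 15) and TMM scaling with robust dispersions. Models held diet and sex for both sexes together, diet alone within a sex, or their interaction, and p-values were adjusted by Benjamini-Hochberg over all genes tested. Single genes were also tested by an exact two-sided permutation of mean RPM, and correlations used log2 CPM (prior count 2). Alternatives were DESeq2 1.42.0, other edgeR and limma tests, log2 of RPM plus 1, other scalings, other filters and leaving out mice. The fit was tested on simulated data. Python 3.11.15, SciPy 1.17.1 and matplotlib 3.10.9 were used for the rest.

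Library totals ran from 9308206 to 17178044 reads. Mice are numbered within groups in accession order, which pairs nothing, and the labels do not say whether mice shared litters or runs. The genes named are the 8 members, the 4 genes of each of 12 pathway lists with the smallest p with both sexes together, and the 3 genes most correlated with each member, except a few that are not reported here. Single-sex values of list genes, Cpt1c and Slc16a1 were chosen after their values were seen. The members and lists were chosen with earlier results of these data known.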

Additional observations from a re-analysis of the deposited data

Results flagged for a closer look

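In each of the 4 groups the highest and the lowest mouse were compared with the others for each of the 8 genes, 32 groups of values in all, by the gap to the nearest mouse as a share of the range of the group. This singled out 2 values, where chance gives about 1 in 20 groups, or 1.6 here. Pdk4 in ND female 4 was 32.1 RPM, with the other 5 ND females between 15.2 and 18.9 RPM. Cpt2 in HFD female 2 was 7.32 RPM, with the other 4 HFD females between 5.65 and 6.09 RPM. The same mouse had the highest Cpt1a of the HFD females, 41.0 RPM.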

How the results depend on the processing

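No paired analysis was possible because the labels give mouse identifiers and no replicate numbers shared between groups. With both sexes, 0 genes passed an adjusted p of 0.05 with edgeR's quasi-likelihood test (1835 at an unadjusted p under 0.05) and with limma-voom. The number was 125 with DESeq2, 151 with edgeR's likelihood ratio test, 9 with limma on log2(RPM + 1), 8 with library totals, 3 without the 2 mice whose identifiers begin with A, and 0 to 23 with 1 mouse left out (23 without ND female 1, 10 without HFD female 3). Bdh1 was not among them in any of these, with adjusted p from 0.129 to 0.547. In females it was 48 with DESeq2, 50 with the likelihood ratio test and 0 to 2 with 1 mouse left out, and in males 5, 12 and 0 to 2, with 1 in a joint fit of 4 groups. The count of lower genes in males was 907 with limma on log2(RPM + 1). With 1 mouse left out, higher genes in females ran from 381 (without HFD female 5) to 779, and in males higher genes ran from 337 to 853 and lower genes from 380 to 761, the lowest both without ND male 1. Lower genes for the interaction were 271 with library totals and 295 to 678 with 1 mouse left out. Genes differing by sex at an adjusted p were 11.2% of those tested, 7.12% without the mice in A and 7.24% to 12.2% with 1 mouse left out, the lowest without HFD male 4. With the olfactory bulb covariate the higher and lower genes were 566 and 531 with both sexes, 294 and 319 in females, and 939 and 729 by sex (0.295% of genes adjusted), and higher genes in males 318. Of the values of the 8 genes under these settings 1030 either kept a call in the same direction or, uncalled in both fits, moved by less than their SE. Of the rest 22 lost a call, 11 gained one and 9, uncalled in both fits, moved by more. The causes were not tested. The half-site AGGTCA alone was in 2 of the 9 member windows, where its repeat was in 0. The RNA of 4 to 6 mice per group and low counts for Cpt2 and Ppara limit what could be detected.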
